A study of Mus musculus with 6 samples.

Results

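The carriers that move amino acids and small peptides across the plasma membrane and the lysosomal membrane were examined in macrophages of the fatty liver. The genes were taken by symbol, as every row of the expression table whose name starts with Slc1a, Slc3a, Slc6a, Slc7a, Slc15a, Slc36a, Slc38a or Slc43a, which gave 34 of 16503 rows. Of these, 32 code for carriers or their partner chains. The other rows were Slc7a6os, a gene beside Slc7a6 that codes for no carrier, and Slc36a3os, an antisense RNA. The symbols also bring in carriers whose main cargo is not an amino acid, such as the creatine carrier Slc6a8 and the purine base carrier Slc43a3.

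RNA was sequenced from CD11chiMinclehi macrophages (n = 3 libraries) and CD11cloMinclelo macrophages (n = 3 libraries), which the study names hepatic lipid-associated macrophages (hLAMs) and monocyte-derived Kupffer cells (moKCs). Both populations were sorted as Ly6Clo F4/80+ Tim4- cells from livers of WT mice, males that were 6 to 12 weeks old when they were put on CDA-HFD, a fat-rich diet that lacks choline and holds free amino acids in place of protein, and that were fed it for 7 weeks. All libraries come from mice on this diet, with its low methionine, and no library from a normal diet entered the comparison. The titles call the libraries biological replicates, but the sources used here do not say how many mice stand behind each library. The p-values set the group difference against the spread between libraries within a group, which may not be the spread between mice.

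Values are TPM, a transcript abundance corrected for gene length and library depth, so that levels of different genes can be set side by side. The libraries held an estimated 6.98 M to 8.12 M assigned reads, worked out from the spacing of low values. Itgax, the gene for CD11c, which was used in the sort, had 315, 340.0 and 325 TPM in CD11chiMinclehi macrophages, against 186, 194 and 169 TPM in CD11cloMinclelo macrophages. Clec4e, the gene for Mincle, also used in the sort, had 391, 399 and 305 TPM in CD11chiMinclehi macrophages, against 349.95, 352 and 246 TPM in CD11cloMinclelo macrophages, and these ranges overlapped. The 7 macrophage markers summed to 3455 to 3531 TPM in CD11chiMinclehi macrophages and 3363 to 3773 TPM in CD11cloMinclelo macrophages. The 7 Kupffer cell markers summed to 400.0 to 784 TPM in CD11chiMinclehi macrophages and 1221 to 2057 TPM in CD11cloMinclelo macrophages. Of these markers, 2 were at 0 in some library. The list holds Clec4f and Cd5l, which the study also uses as marker genes of moKCs. Timd4, the gene for Tim4, had 0, 3.19 and 0 TPM in CD11chiMinclehi macrophages, against 0.814, 3.77 and 2.45 TPM in CD11cloMinclelo macrophages. Markers of other cell types were present too. The hepatic stellate cell markers (7 in the table, none at 0, 1 of which fell) summed to 103 to 136 TPM in CD11chiMinclehi macrophages and 159 to 224 TPM in CD11cloMinclelo macrophages. The 5 plasmacytoid dendritic cell markers, 2 of them at 0 in some library, summed to 309.6 to 362 TPM in CD11chiMinclehi macrophages and 429 to 486 TPM in CD11cloMinclelo macrophages, so that these sums, like those of the Kupffer cell markers, did not overlap. The 10 hepatocyte markers, none at 0 in any library, summed to 1841 to 2989 TPM in CD11chiMinclehi macrophages and 2084 to 2647 TPM in CD11cloMinclelo macrophages. The gate excluded cells with the T cell, B cell, NK cell and neutrophil markers CD90.2, B220, NK1.1 and Ly6G, and T or NK cell markers summed to 13.6 to 292 TPM in CD11chiMinclehi macrophages and 17.5 to 456 TPM in CD11cloMinclelo macrophages.

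Amino acid carriers set which building blocks a macrophage can take up, exchange or release from its lysosomes. Many Slc7a carriers work only as a pair, in which a catalytic light chain is held at the membrane by a heavy chain, Slc3a2 (CD98) or Slc3a1. Slc7a11 in such a pair brings in cystine, the source of cysteine for glutathione, in exchange for glutamate. Carriers of the Slc36a, Slc15a and Slc38a families on the lysosome let amino acids and peptides freed by digestion into the cytosol, and Slc38a9 there reports amino acid supply to the growth kinase mTORC1. Macrophages are known for high turnover of ingested proteins and bacterial peptides through these lysosomal carriers.

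The carriers as a whole were expressed at much the same summed level in both populations, and few members moved. The 34 rows summed to 2850 ± 52.5 TPM in CD11chiMinclehi macrophages and 2851 ± 87.7 TPM in CD11cloMinclelo macrophages (SD, n = 3 each). The median log2 difference over the 34 rows was 0.0006, beside -0.010 over all 16503 rows. In limma's moderated test on log2(TPM + 1), called at an adjusted p under 0.05 over all rows, 1 member rose, Slc36a2, where 0.770% of all rows rose. No member fell in that test, where 0.454% of all rows fell. At an unadjusted p under 0.05, 4 members passed, each of them higher in CD11chiMinclehi macrophages, which is 11.8% of members beside 12.9% of all rows.

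No label pairs the libraries, but those of the same number deviated together (correlations 0.36, 0.20 and 0.12), and they are called pairs below. The replicate number was therefore also fitted as a block. This choice was made from the same values that were then tested, so calls made only with the block are less secure. Over all rows, 202 were called without the block and 564 with it. With the number as a block, 3 members rose, Slc36a2, Slc36a4 and Slc7a11, where 1.67% of all rows rose, and 1 member fell, Slc7a8, where 1.75% of all rows fell. Standard errors (SE) and intervals are from the model without the block unless a value is given as with it. Without regard to a test, 5 members had all CD11chiMinclehi libraries above all CD11cloMinclelo libraries, where 9.25% of all rows did, and no member had them all below, where 9.22% of all rows did. These 5 were Slc36a2, Slc36a4, Slc7a11, Slc6a8 and Slc38a10. The share of all rows that went the same way in every pair was not counted, so such agreement is description only. In bulk RNA, a lower level from fewer cells of a type and one from less RNA per cell cannot be told apart.

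**Figure D1:**
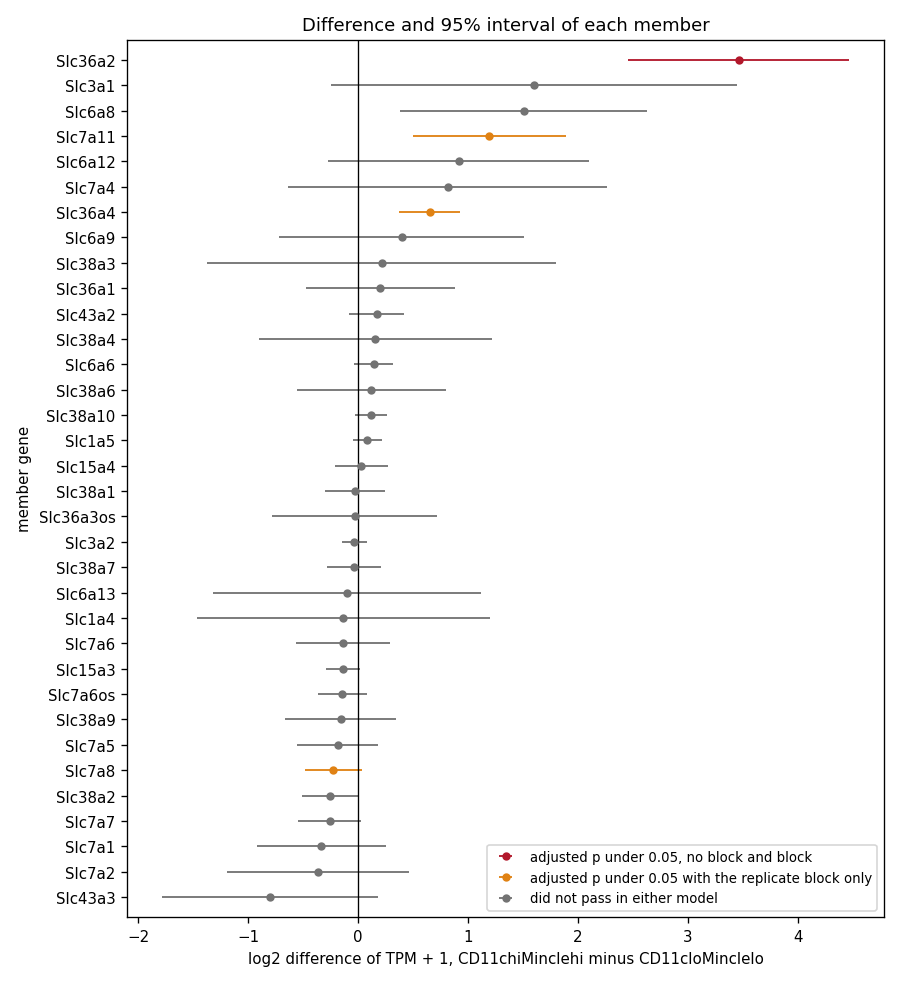
Difference between CD11chiMinclehi and CD11cloMinclelo macrophages in log2(TPM + 1) for the 34 members (points), with the 95% interval from limma (lines, n = 3 libraries a group). Slc36a2 stands furthest from 0 at 3.46, and the intervals of most members cross 0.

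Of the 3 Slc36a carriers measured, 1 rose without the block, where 0.770% of all rows rose, and 2 with it, where 1.67% did. The 3 members in the table summed to 93.9, 94.2 and 96.8 TPM in CD11chiMinclehi macrophages, against 53.3, 53.6 and 51.6 TPM in CD11cloMinclelo macrophages. The sums lay in narrow bands that did not overlap, and most of the gap came from Slc36a4 and Slc36a2.

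Slc36a2 (chr11:55158470-55185077, minus strand) codes for a carrier of glycine, alanine and proline that is driven by protons and is best known from kidney and fat cells. It had 14.1, 19.5 and 20.2 TPM in CD11chiMinclehi macrophages, against 1.21, 0 and 1.22 TPM in CD11cloMinclelo macrophages. All 3 CD11chiMinclehi libraries lay far above the other group, whose second library was at 0. The values stand for an estimated 84.2, 109 and 121 reads in CD11chiMinclehi macrophages and 6.67, 0 and 6.67 reads in CD11cloMinclelo macrophages. The group mean was 17.9 ± 3.35 TPM in CD11chiMinclehi macrophages and 0.811 ± 0.702 TPM in CD11cloMinclelo macrophages (SD, n = 3 each).

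The difference in Slc36a2 was 3.46 ± 0.43 (SE) on the log2(TPM + 1) scale, where the added 1 shrinks the change of a gene this low, and its adjusted p in limma was 0.0188. With the replicate block its adjusted p was 0.0122. The call rested on the full set of libraries. When 1 library was left out in turn, the difference stayed between 3.08 and 3.65, but the adjusted p stayed under 0.05 only without CD11cloMinclelo replicate 2 (0.0380), and ranged from 0.0570 to 0.0900 without any of the other 5. Of its neighbours on chromosome 11, Slc36a3os had 29.3 ± 4.61 TPM in CD11chiMinclehi macrophages and 31.9 ± 13.4 TPM in CD11cloMinclelo macrophages (SD, n = 3 each). Slc36a1, the lysosomal carrier of small neutral amino acids, had 14.3 ± 3.13 TPM in CD11chiMinclehi macrophages and 12.4 ± 3.91 TPM in CD11cloMinclelo macrophages (SD, n = 3 each), with overlapping ranges. Neither passed the test.

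Slc36a4, a carrier of proline and tryptophan, was the most abundant of the family. It had 68.8, 57.4 and 62.2 TPM in CD11chiMinclehi macrophages, against 42.8, 36.8 and 39.2 TPM in CD11cloMinclelo macrophages. The groups did not overlap, and the log2 difference was much the same in each pair, at 0.67, 0.63 and 0.65. The fitted difference was 0.65 ± 0.12 (SE). Its adjusted p in limma was 0.0502 without the block and 0.0261 with it. Without the block it was 0.0417 when rows averaging under 5 TPM were left out.

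**Figure D2:**
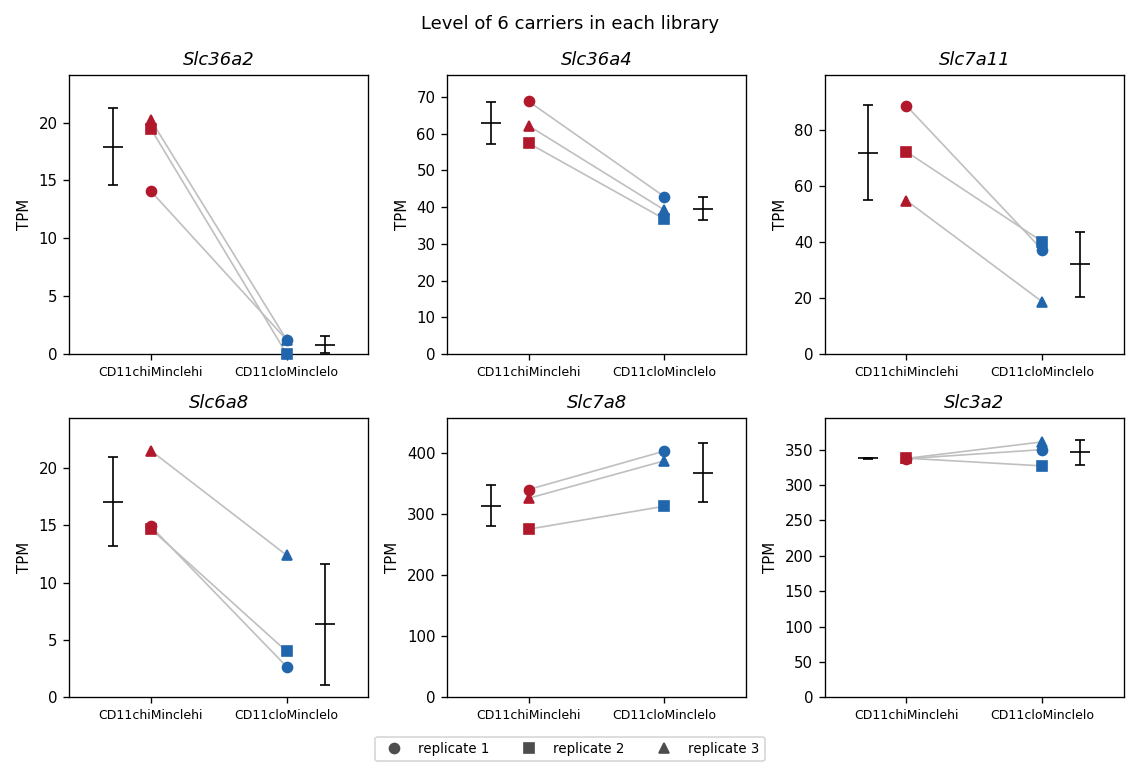
TPM of Slc36a2, Slc36a4, Slc7a11, Slc6a8, Slc7a8 and Slc3a2 in CD11chiMinclehi libraries (left of each panel) and CD11cloMinclelo libraries (right), with lines joining libraries of the same number and bars for the mean ± SD (n = 3). The top row and Slc6a8 show groups that do not overlap, Slc7a8 is lower in CD11chiMinclehi macrophages in every pair, and Slc3a2 stays between 327 and 361 TPM.

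Among the heterodimeric carriers, the shared heavy chain did not pass the test in either model, and the cystine carrier rose with the block. Slc3a2, the heavy chain of all 5 light chains measured here, had 337, 338 and 338 TPM in CD11chiMinclehi macrophages, against 350.1, 327 and 361 TPM in CD11cloMinclelo macrophages. The CD11chiMinclehi libraries were within 1 TPM of each other and inside the range of the other group. The log2 difference was -0.03, with a 95% interval from -0.15 to 0.08, and the sign turned (0.01) when libraries were centred on the median of all rows. Slc3a1, the heavy chain of kidney and gut, was low, with 3.59, 8.13 and 5.47 TPM in CD11chiMinclehi macrophages, against 0.26, 6.77 and 0 TPM in CD11cloMinclelo macrophages. Its groups overlapped (adjusted p in limma 0.465), and its locus overlaps Prepl on the opposite strand.

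Slc7a11 (xCT) had 88.7, 72.3 and 54.8 TPM in CD11chiMinclehi macrophages, against 37.2, 40.1 and 18.6 TPM in CD11cloMinclelo macrophages. The groups did not overlap, but the libraries numbered 3 were the lowest in both, so the spread within each group was wide. In pairs the log2 difference was 1.23, 0.83 and 1.51. The fitted difference was 1.19 ± 0.30 (SE), with an adjusted p in limma of 0.131 without the block and 0.0129 with it.

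The promoter windows of Slc7a11 and Slc36a4, 2 of the 3 carriers that rose with the block, are shown because they were searched for the core of the amino acid response element, the site used by the stress factor ATF4 (TGATGNAA, either strand), and for the core of the antioxidant response element, the site used by NRF2 (TGACNNNGC, either strand). The sequences are from RefSeq (GRCm38.p6) and run 5′ to 3′ on the gene's strand, from 250 bases before the start site to 50 bases after it, with matches to the amino acid response element in capitals. The window of Slc36a2 was not analysed here. The sequences cover chr3:50443564-50443863 (minus strand) for Slc7a11 and chr9:15709488-15709787 (plus strand) for Slc36a4.
Slc7a11: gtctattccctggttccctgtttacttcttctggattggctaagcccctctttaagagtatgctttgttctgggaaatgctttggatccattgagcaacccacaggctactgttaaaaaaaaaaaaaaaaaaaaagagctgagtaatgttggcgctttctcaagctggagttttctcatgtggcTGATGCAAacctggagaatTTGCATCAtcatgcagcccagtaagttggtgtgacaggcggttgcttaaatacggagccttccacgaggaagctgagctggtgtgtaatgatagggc
Slc36a4: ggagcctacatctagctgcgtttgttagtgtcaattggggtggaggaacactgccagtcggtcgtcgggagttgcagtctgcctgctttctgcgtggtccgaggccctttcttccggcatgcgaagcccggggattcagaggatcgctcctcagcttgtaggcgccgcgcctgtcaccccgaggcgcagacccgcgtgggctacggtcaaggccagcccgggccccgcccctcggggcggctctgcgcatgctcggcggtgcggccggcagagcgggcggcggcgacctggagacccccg

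The Slc7a11 window held 2 matches to the amino acid response element, in opposite orientation, with first bases at -66 and -47 from the start site, and none to the antioxidant response element. They overlap no other match. Of all 32851 promoter windows, 3.97% held at least 1 such match and 0.0700% held 2 or more. A window of Slc7a7, which did not pass the test, held 2 as well. The Slc36a4 window held neither motif, and nor did that of Slc7a8. The table gave 40 windows for 23 members, and 4 of the 40 windows matched the amino acid response element, in Slc7a11, Slc7a7 and Slc1a4. The antioxidant element, present in 12.4% of all windows, was matched in 8 of the 40 windows, in 6 members, Slc36a1, Slc38a2, Slc6a13, Slc6a9, Slc7a1 and Slc7a6. None of these 6 passed the test in either model.

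The remaining 4 light chains had negative log2 differences, and 1 of them fell with the block, where 1.75% of all rows fell. Slc7a8 (LAT2), an exchanger of neutral amino acids and the most abundant light chain, had 339.7, 275 and 326 TPM in CD11chiMinclehi macrophages, against 403, 312 and 387 TPM in CD11cloMinclelo macrophages. The groups overlapped, and replicate 2 was the lowest in both, yet each CD11chiMinclehi library was below its pair, by log2 differences of -0.24, -0.18 and -0.25. The fitted difference was -0.23 ± 0.11 (SE), with an adjusted p in limma of 0.463 without the block and 0.0384 with it. The Kupffer cell marker sum was also lower in each CD11chiMinclehi library than in its pair, at 400.0, 407 and 784 TPM against 1221, 1438 and 2057 TPM in CD11cloMinclelo libraries. The marker sums of hepatic stellate cells, plasmacytoid dendritic cells, monocytes, B or plasma cells, T or NK cells, and erythroid cells or platelets were lower in each pair too. Those of macrophages, hepatocytes, liver sinusoidal endothelial cells, cholangiocytes, neutrophils and dendritic cells were not lower in every pair. The cholangiocyte list holds Spp1, which the study also uses as a marker gene of hLAMs. The part of any of these cell types in the result was not tested.

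Slc7a7 (y+LAT1), which exports arginine and lysine in exchange for neutral amino acids, had 134, 124 and 149 TPM in CD11chiMinclehi macrophages, against 172, 135 and 183 TPM in CD11cloMinclelo macrophages. Each CD11chiMinclehi library was below its pair, but the ranges overlapped and the adjusted p in limma was 0.444 without the block and 0.131 with it. Slc7a5 (LAT1), the main importer of leucine, had 37.5 ± 2.03 TPM in CD11chiMinclehi macrophages and 43.2 ± 7.72 TPM in CD11cloMinclelo macrophages, and Slc7a6 (y+LAT2) had 32.6 ± 0.968 TPM in CD11chiMinclehi macrophages and 36.7 ± 9.08 TPM in CD11cloMinclelo macrophages (SD, n = 3 each). Neither passed the test. The highest value of Slc7a6 was the 47.0 TPM of CD11cloMinclelo replicate 2, the library with the largest sum of T or NK cell markers (456 TPM), whose part was not tested; without that library the difference in Slc7a6 was 0.05 in place of -0.14.

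Set against each other, the light chains were dominated by Slc7a8, and Slc7a11 took a larger share in CD11chiMinclehi macrophages. Slc7a11 made up 14.0%, 13.3% and 9.19% of the summed light chain TPM in CD11chiMinclehi macrophages, against 5.38%, 7.05% and 2.79% in CD11cloMinclelo macrophages, which did not overlap. Slc7a8 made up 52.9 ± 2.05% in CD11chiMinclehi macrophages and 57.0 ± 1.83% in CD11cloMinclelo macrophages (SD, n = 3 each). The light chains together amounted to 1.88, 1.61 and 1.77 TPM for each TPM of Slc3a2 in CD11chiMinclehi macrophages, against 1.97, 1.74 and 1.85 TPM in CD11cloMinclelo macrophages. These shares and ratios were given no test.

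**Figure D3:**
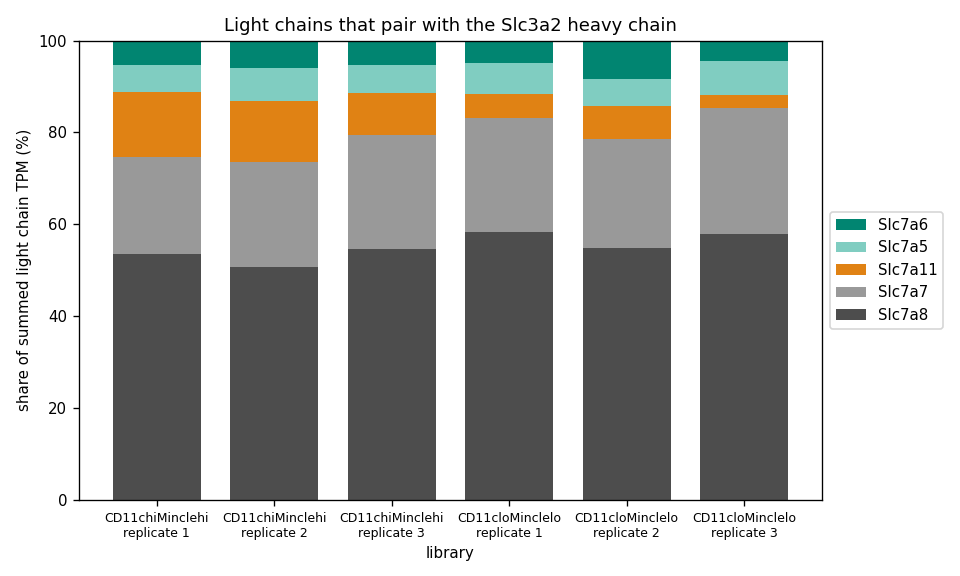
Share (%) of the summed TPM of the 5 light chains held by each, in the 3 CD11chiMinclehi libraries (left) and the 3 CD11cloMinclelo libraries (right). Slc7a11 holds 9.19% to 14.0% in CD11chiMinclehi libraries and 2.79% to 7.05% in CD11cloMinclelo libraries, and Slc7a8 holds the largest share in every library.

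The cationic carriers, which bring arginine to nitric oxide synthase and arginase, did not pass the test in either model. Slc7a1 (CAT1) had 17.2, 10.12 and 16.8 TPM in CD11chiMinclehi macrophages, against 18.5, 16.6 and 20.0 TPM in CD11cloMinclelo macrophages. Slc7a2 (CAT2) had 15.5, 13.7 and 28.8 TPM in CD11chiMinclehi macrophages, against 23.5, 16.2 and 35.6 TPM in CD11cloMinclelo macrophages. Both were lower in CD11chiMinclehi macrophages in each pair, but the ranges overlapped, with log2 differences of -0.33 (95% interval -0.92 to 0.25) for Slc7a1 and -0.36 (95% interval -1.19 to 0.46) for Slc7a2. Slc7a4, placed with them by sequence, was low, with 3.43, 2.82 and 3.88 TPM in CD11chiMinclehi macrophages, against 0, 2.21 and 3.74 TPM in CD11cloMinclelo macrophages. Slc36a2, Slc3a1 and Slc7a4 were the 3 members listed at 0 in at least 1 library, and in each case that library was of CD11cloMinclelo macrophages.

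Of the sodium- and chloride-coupled Slc6a carriers, 4 of 5 had positive log2 differences and none passed the test. At an unadjusted p under 0.05, 1 of these carriers passed, Slc6a8, where 12.9% of all rows did. Slc6a6, the taurine carrier and the most abundant of them, had 238 ± 12.46 TPM in CD11chiMinclehi macrophages and 216 ± 19.8 TPM in CD11cloMinclelo macrophages (SD, n = 3 each), with overlapping ranges. Slc6a8, which brings in creatine, had 14.9, 14.7 and 21.5 TPM in CD11chiMinclehi macrophages, against 2.68, 4.01 and 12.4 TPM in CD11cloMinclelo macrophages. The groups did not overlap, and the libraries numbered 3 were the highest in both. Its log2 difference was 1.504 ± 0.484 (SE), the third largest among the members, with an adjusted p in limma of 0.235 without the block and 0.0701 with it. Slc6a9, a glycine carrier, was under 5 TPM in all libraries.

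**Figure D4:**
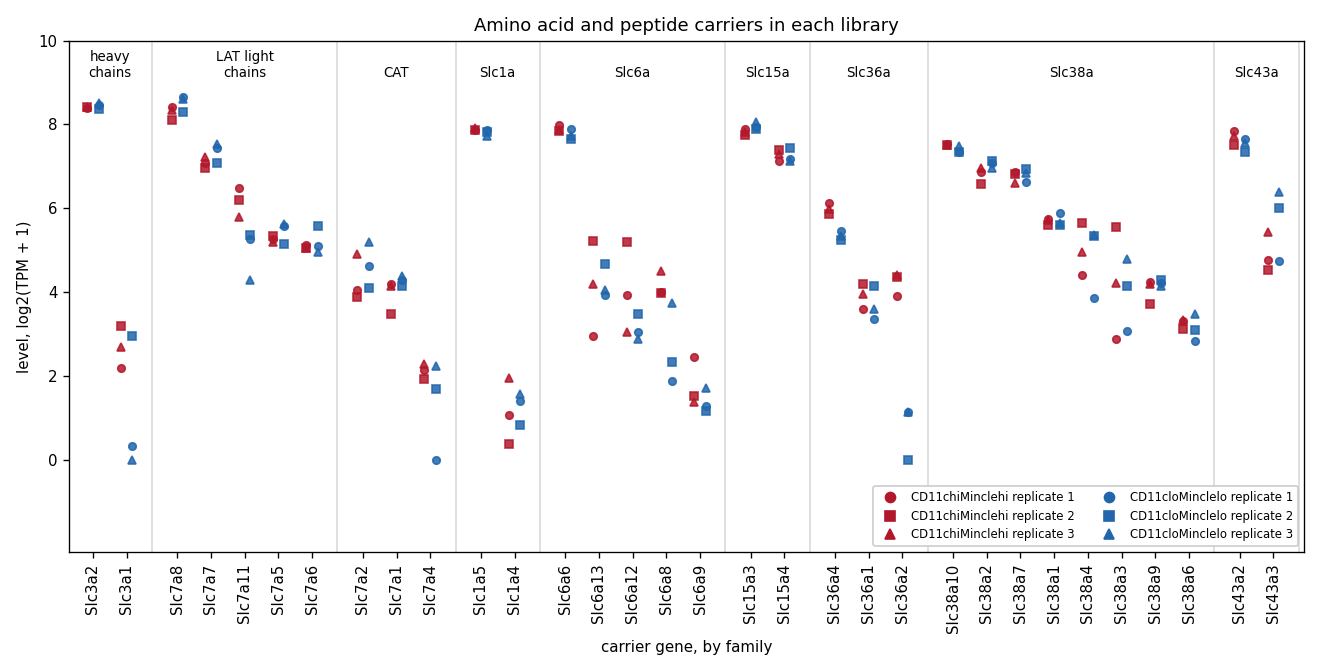
Level of the 32 carriers, as log2(TPM + 1), in each library, with CD11chiMinclehi libraries left of CD11cloMinclelo libraries for each gene and families side by side. Levels run over a wide range, Slc3a2 and Slc7a8 are the highest, and the spread between libraries grows among the low genes.

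The betaine and GABA carriers Slc6a12 and Slc6a13 and the glutamine and alanine carriers Slc38a3 and Slc38a4, all known from hepatocytes, varied more between libraries than between groups. Slc38a4 and Slc6a13 were added to this account after their values were seen. Slc6a12 had 14.2, 35.4 and 7.27 TPM in CD11chiMinclehi macrophages, against 7.28, 10.2 and 6.42 TPM in CD11cloMinclelo macrophages. Slc38a3 had 6.41, 46.2 and 17.5 TPM in CD11chiMinclehi macrophages, against 7.46, 16.6 and 26.8 TPM in CD11cloMinclelo macrophages. All 4 were highest in CD11chiMinclehi replicate 2, where Slc38a4 had 49.2 TPM and Slc6a13 had 36.1 TPM.

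That library also had the highest sum of the 10 hepatocyte markers, at 2989 TPM, and the highest Tat, the liver enzyme of tyrosine breakdown, at 221 TPM. Tat in the other libraries was 63.5 and 81.2 TPM in CD11chiMinclehi macrophages and 64.6, 173 and 73.0 TPM in CD11cloMinclelo macrophages. The next highest hepatocyte marker sum was the 2647 TPM of CD11cloMinclelo replicate 3. Slc38a3 and Slc38a4 had their next highest values there, at 26.8 and 39.9 TPM. Slc6a13 had 15.6 TPM in that library, and Slc6a12 was lowest there, at 6.42 TPM. The sum was lowest, at 1841 TPM, in CD11chiMinclehi replicate 1. Slc38a3 and Slc6a13 were lowest there too, at 6.41 and 6.80 TPM, while Slc38a4 had 20.3 TPM and Slc6a12 had 14.2 TPM. The part of hepatocyte RNA in these 4 carriers was not tested. Without CD11chiMinclehi replicate 2, the log2 difference of Slc38a3 was -0.46 in place of 0.21, and that of Slc6a12 was lowest among the libraries left out, at 0.35 in place of 0.91. None of the 4 passed the test in either model.

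**Figure D5:**
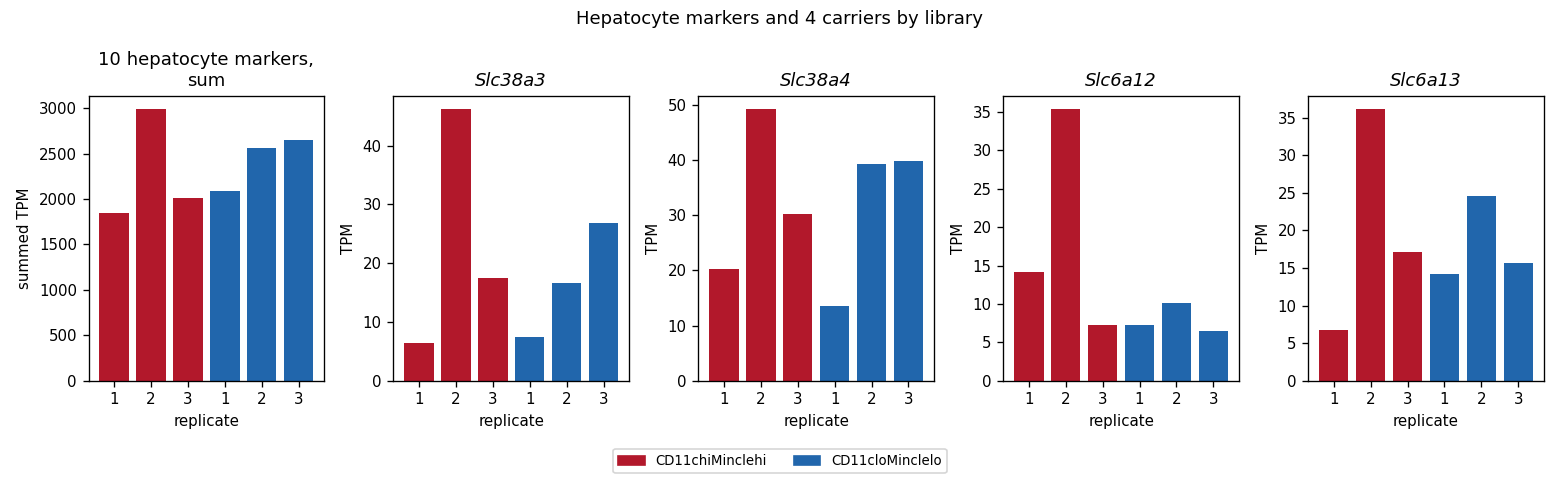
Summed TPM of 10 hepatocyte markers (leftmost panel) and TPM of Slc38a3, Slc38a4, Slc6a12 and Slc6a13, as bars for replicates 1 to 3 of CD11chiMinclehi macrophages (left) and CD11cloMinclelo macrophages (right). The bar of CD11chiMinclehi replicate 2 is the tallest in every panel.

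The other Slc38a carriers did not pass the test in either model. Slc38a2 (SNAT2), a glutamine and alanine importer that cells raise when starved of amino acids, had 116, 93.9 and 124 TPM in CD11chiMinclehi macrophages, against 133, 139 and 124 TPM in CD11cloMinclelo macrophages. Its groups met at their edges, and the difference of -0.25 ± 0.11 (SE) did not pass (adjusted p in limma 0.399). Slc38a10, a widely expressed relative, had 184, 180.1 and 180.0 TPM in CD11chiMinclehi macrophages, against 162, 161 and 178 TPM in CD11cloMinclelo macrophages. These groups did not overlap, but the log2 difference was 0.12 and the adjusted p in limma was 0.489. Slc38a7, which releases glutamine from lysosomes, had 107 ± 9.37 TPM in CD11chiMinclehi macrophages and 111 ± 11.8 TPM in CD11cloMinclelo macrophages, and Slc38a9 had 15.8 ± 3.17 TPM in CD11chiMinclehi macrophages and 17.5 ± 0.864 TPM in CD11cloMinclelo macrophages (SD, n = 3 each). Slc38a1 and Slc38a6 had log2 differences of -0.03 and 0.12 and did not pass.

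The abundant glutamine and peptide carriers did not pass the test in either model. Slc1a5 (ASCT2), the main glutamine importer of many dividing cells, had 234, 231 and 239.5 TPM in CD11chiMinclehi macrophages, against 232, 224 and 209 TPM in CD11cloMinclelo macrophages. Its ranges overlapped, with a log2 difference of 0.08 (95% interval -0.05 to 0.21). Its relative Slc1a4 was under 3 TPM in every library. Slc15a3, a lysosomal carrier of histidine and of peptides from bacterial walls, had 237, 214 and 226 TPM in CD11chiMinclehi macrophages, against 245, 235 and 267 TPM in CD11cloMinclelo macrophages. It was lower in CD11chiMinclehi macrophages in each pair, but the ranges overlapped, with a log2 difference of -0.14 (95% interval -0.30 to 0.01). Slc15a3 and the light chain Slc7a7 overlap Tmem132a and Oxa1l on the opposite strand, and Slc43a2 overlaps the antisense RNA Gm45606, which averaged 35.0 TPM. Slc38a9, Slc38a10, Slc6a6, Slc6a9 and Slc7a4 also overlap genes on the opposite strand. Without a known strand setting, reads of such partners cannot be told apart. Slc15a4, which does the same task and is needed for endosomal Toll-like receptor signals, had 155 ± 14.4 TPM in CD11chiMinclehi macrophages and 152 ± 18.2 TPM in CD11cloMinclelo macrophages (SD, n = 3 each). Its sign turned without CD11chiMinclehi replicate 2 or without CD11cloMinclelo replicate 1 or 3, at log2 differences from -0.03 to 0.13 over the 6 libraries left out.

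The facilitative Slc43a carriers did not pass either. Slc43a2 (LAT4), which lets leucine, phenylalanine and methionine down their gradient, had 227, 181 and 211 TPM in CD11chiMinclehi macrophages, against 201, 161 and 187 TPM in CD11cloMinclelo macrophages. It was higher by log2 differences of 0.18, 0.17 and 0.17 in the 3 pairs, but the ranges overlapped and the adjusted p in limma was 0.587 without the block and 0.167 with it. Slc43a3 had 26.1, 21.9 and 42.4 TPM in CD11chiMinclehi macrophages, against 25.8, 62.9 and 82.5 TPM in CD11cloMinclelo macrophages. Its log2 difference of -0.80 ± 0.42 (SE) was the lowest of all members and did not pass (adjusted p in limma 0.490). CD11cloMinclelo replicate 1 lay within the range of the CD11chiMinclehi libraries, and without it the difference was -1.29 and did not pass either (adjusted p in limma 0.150).

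The abundant carriers differed little between the groups. The 10 members with the highest mean held 76.1% of the members' TPM, and none of them had a log2 difference beyond 0.26 in either direction. Over all members, 11 averaged at least 100 TPM, 17 between 10 and 100 TPM and 6 under 10 TPM. By size alone, 23 of 34 stayed within 1.2-fold.

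Genes of the pathways that these carriers feed were counted in the same test, from lists that were drawn up with earlier results of these data known. The counts stand beside 12.9% of all rows at an unadjusted p under 0.05. Without the block, 0.770% of all rows rose and 0.454% fell, and with it 1.67% rose and 1.75% fell. Of 5 further amino acid carriers and partners in the table, 1 rose, Mfsd12, which is needed to bring cysteine into lysosomes. Mfsd12 had 226, 218 and 225 TPM in CD11chiMinclehi macrophages, against 149, 153 and 173 TPM in CD11cloMinclelo macrophages, and the groups did not overlap. Its log2 difference was 0.49 ± 0.07 (SE), with an adjusted p in limma of 0.0253 without the block and 0.0131 with it. The call was lost when any library other than CD11cloMinclelo replicate 3 was left out and when the variance trend was dropped. The cystine exporter of lysosomes, Ctns, had a log2 difference of 0.12 and did not pass.

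Of 9 genes of glutathione synthesis and turnover, none passed in limma without the block, with 4 at an unadjusted p under 0.05, and 1 rose with it. This was Gclm, the regulatory subunit of the rate-limiting enzyme, which had 167, 143 and 142 TPM in CD11chiMinclehi macrophages, against 125, 105 and 108 TPM in CD11cloMinclelo macrophages. The groups did not overlap, and the log2 difference was 0.42 ± 0.10 (SE), with an adjusted p in limma of 0.107 without the block and 0.0211 with it. The catalytic subunit Gclc had a log2 difference of 0.22 (adjusted p with the block 0.167). The 4 genes at an unadjusted p under 0.05 were Gclm, Gclc and Gss, which were higher, and Oplah, which was lower. Gss had a log2 difference of 0.32 and Oplah of -0.59. Neither passed with the block (adjusted p in limma 0.134 for Gss and 0.135 for Oplah).

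Of 26 genes of the ATF4 amino acid response in the table, none passed in limma without the block, with 3 at an unadjusted p under 0.05, and the list's median log2 difference was 0.04, beside -0.010 over all rows. With the block 1 gene fell, Nupr1, a stress-induced chromatin protein, which had 115, 143 and 98.4 TPM in CD11chiMinclehi macrophages, against 159, 194 and 139 TPM in CD11cloMinclelo macrophages. It was lower in each pair, though the ranges overlapped, and its adjusted p in limma was 0.263 without the block and 0.0135 with it.

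Of 28 genes of amino acid sensing by mTORC1, none passed in limma without the block, with 4 at an unadjusted p under 0.05, and 3 passed with it. Without the block, 2 rose when rows averaging under 5 TPM were left out, and 2 rose and 1 fell after quantile normalization. Fnip2, a partner of folliculin at the lysosome, had 73.6, 57.8 and 69.0 TPM in CD11chiMinclehi macrophages, against 41.5, 32.2 and 40.2 TPM in CD11cloMinclelo macrophages. Its groups did not overlap, and it rose by 0.80 ± 0.11 (SE) with the block (adjusted p in limma 0.0135). Mitf, a transcription factor of lysosome genes, had 101, 84.6 and 83.6 TPM in CD11chiMinclehi macrophages, against 56.1, 58.3 and 43.1 TPM in CD11cloMinclelo macrophages. It also rose with the block, by 0.77 ± 0.11 (SE, adjusted p in limma 0.0181), and both had an adjusted p of 0.0502 without it. Sesn1, a relative of the leucine sensor Sesn2, had 134, 119 and 137 TPM in CD11chiMinclehi macrophages, against 169, 168 and 165 TPM in CD11cloMinclelo macrophages. It fell with the block (log2 difference -0.36 ± 0.07, SE, adjusted p in limma 0.0446) and had an adjusted p of 0.0611 without it. Sesn2 itself, counted in the ATF4 list, had 68.6, 48.3 and 70.1 TPM in CD11chiMinclehi macrophages, against 81.5, 85.8 and 77.0 TPM in CD11cloMinclelo macrophages. Its groups did not overlap, but it did not pass (adjusted p in limma 0.309 without the block and 0.230 with it).

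Enzymes that use arginine, glutamine and tryptophan gave 1 rise with the block among 19 genes and none without it, with 3 at an unadjusted p under 0.05. The gene was Ass1, which remakes arginine from citrulline and had 149, 215 and 131 TPM in CD11chiMinclehi macrophages, against 97.0, 134 and 112 TPM in CD11cloMinclelo macrophages. Its ranges overlapped, its adjusted p in limma was 0.0467 with the block and 0.305 without it, and it was highest in CD11chiMinclehi replicate 2, the library with the most hepatocyte marker RNA, whose part was not tested. Of 12 genes of muropeptide sensing and peptide breakdown, none passed in limma in either model, with 4 at an unadjusted p under 0.05.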

How the data were processed

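RNA from 6 libraries was profiled, 3 a group by title. Per the methods and notes, the authors selected polyadenylated RNA, made directional paired-end libraries, ran Trimmomatic 0.39.0, mapped to GRCm38 by HISAT2 2.2.1, dropped PCR duplicates and assigned reads by featureCounts 2.0.1. What they deposited is TPM, made by the authors from these assigned reads. Which annotation release and strand setting were used was not given in the sources used here, so reads of overlapping genes on opposite strands may be shared.

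Here, log2(TPM + 1) was tested over all 16503 rows with limma 3.58.1 (R 4.3.3, mean-variance trend, two-sided, Benjamini-Hochberg adjustment, called under 0.05), after a check on simulated data. The lowest row mean was 1.00 TPM. Same-numbered libraries deviated together (correlations of deviations from group means 0.36, 0.20 and 0.12, each over 0.1), so the replicate number was also fitted as a block. The pairing comes from these data and not from a label. Alternatives were other pseudocounts, a filter, no trend, other scalings and leaving out each library. Reads were estimated from steps in TPM times gene length, where 80.5% to 87.9% of low values were whole within 0.05 (10% by chance). Coordinates are from GENCODE (GRCm38), and all 34 members matched. Members and lists were chosen with earlier results of these data known. Named were the members called in either model, the 6 largest rises and falls among members with at least 10 TPM, the 10 most abundant, Slc3a2 with its light chains, members at 0, and called pathway genes. The remaining members are given by family.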

Additional observations from a re-analysis of the deposited data

How the results depend on the processing

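The number of members that rose was 1, and became 0 with a pseudocount of 0.1 TPM, 0 without the variance trend, 2 among rows averaging at least 5 TPM (Slc36a2 and Slc36a4, adjusted p in limma 0.0417 for the second), and 0 to 1 when a library was left out. Slc36a2 stayed higher in all 13 alternatives, with an adjusted p in limma of 0.0745 at the pseudocount of 0.1 TPM and 0.0782 without the trend, and 0.0380 to 0.0900 with a library left out. With the replicate block, which rests on a pairing that no label gives, 3 members rose and 1 fell, and it changed no other call among the members named. The number that fell stayed 0 when a library was left out.

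The median log2 difference over members was 0.0006, and became -0.030 among the 30 members averaging at least 5 TPM, 0.043 with libraries centred on their median, 0.033 after quantile normalization, and -0.028 to 0.090 when a library was left out. Signs turned for Slc3a2 (0.0086) with median centring, and with a library left out for Slc15a4 (-0.0315 to 0.126), Slc38a3 (-0.457 to 0.879) and Slc7a6 (-0.267 to 0.049). The cause was not tested. Of 297 values compared over the named members, 279 kept their direction and side of the threshold. At 6.98 M to 8.12 M reads and 3 libraries a group, members under 10 TPM other than Slc36a2 had intervals that reached both sides of 0, so differences within those intervals were not detectable at this depth.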
